A study of Mus musculus with 2 samples.

Results

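Slc6a2, Prss23, Ackr1, Bst1, Car8, Amigo2, Csrp2 and Cadm1 are 8 venous identity genes, taken by symbol from the 32286 features listed for both libraries. Each symbol matched 1 identifier. Their raw UMIs (unique molecular identifiers, which count each captured transcript once) were followed across endothelial cell classes that were set from the UMIs of other marker genes. The series measured lung cells of C57BL/6J mice aged 10 to 12 weeks by droplet single-cell RNA sequencing of transcript 3' ends. There was 1 library labelled aKO and 1 labelled aWT, in a model that the series title ties to hereditary hemorrhagic telangiectasia type 2, the disorder of the BMP receptor gene ACVRL1. In both libraries the cells carried VE-cadherin-cre, a recombinase driven by the promoter of an endothelial cadherin, and were sorted for the red fluorescent protein tdTomato that it switches on. The labels name neither the deleted gene nor the number or sex of the animals. Because each group is 1 library, the spread between animals is unknown, no test between aKO and aWT was made, and the 95% intervals below cover counting error only.

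Veins collect blood from the capillary bed, and their endothelium is set apart from arterial endothelium by the nuclear receptor Nr2f2 (COUP-TFII), which holds back the arterial programme. Venules are also the main site where leukocytes leave the blood, and they display P-selectin (Selp), VCAM-1 (Vcam1) and chemokine-binding receptors such as Ackr1. In the mouse lung, venous endothelium is further known for Slc6a2, the noradrenaline transporter, which clears this transmitter from the blood as it passes through the lung.

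The deposited matrices held 11045 barcodes with 75950364 UMIs for aKO and 15996 barcodes with 72270260 UMIs for aWT. After filtering there were 10386 aKO cells with a median of 5732 UMIs and 14933 aWT cells with a median of 3919 UMIs. The libraries shared 48 barcodes. Acvrl1, the mouse counterpart of ACVRL1, stood at 488 CPM (UMIs scaled to a total of 1000000) over all endothelial cells of aKO, against 1024 CPM in aWT. A 3' end count does not show whether an exon further upstream was deleted, so this value does not check the labels. Xist, the RNA that coats an inactive X chromosome, stood at 729 CPM in aKO and at 3.59 CPM in aWT, and sex therefore cannot be told apart from the labelled difference in any comparison below.

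Venous cells were those with at least 2 UMIs of Nr2f2 and Mustn1 together and at least 3 UMIs of Vwf, Vcam1 and Selp together. Cells that met the lymphatic rule were not called venous, and cells that also met the arterial or aerocyte rule were set apart as mixed. The venous class held 993 cells in aKO, 9.78% of its endothelial cells (exact Clopper-Pearson interval 9.21 to 10.4), and 991 in aWT, 6.87% (6.46 to 7.29). These shares rest on a UMI minimum and on libraries of unequal depth. The median was 10751 UMIs in aKO venous cells and 6360 UMIs in aWT venous cells, and with every cell thinned to 2000 UMIs before classes were set the shares were 3.89% in aKO and 3.29% in aWT. Vegfc and Ephb4, venous markers that were not used to pick the cells, stood at 804 and 252 CPM in the aKO venous class and at 894 and 312 CPM in the aWT venous class. Lymphatic markers summed to 48.1 CPM there in aKO and to 34.8 CPM in aWT, against 16910 CPM and 16058 CPM in the lymphatic classes of the same libraries. Prox1, Mmrn1, Reln and Pdpn of that sum set the lymphatic class, so the gap was partly fixed by the rules. Outside the rules, Ccl21a stood at 23.8 CPM in aKO and 16.7 CPM in aWT venous cells, and Nts at 9.93 CPM and 3.12 CPM. In lymphatic cells Ccl21a stood at 10561 CPM in aKO and 9700 CPM in aWT, and Nts at 272 CPM and 142 CPM. Among the genes that set the class, Nr2f2 (509 CPM in aKO and 555 CPM in aWT), Mustn1 (209 CPM in aKO and 155 CPM in aWT) and Selp (149.7 CPM in each) were within 2-fold. Vwf was lower in aKO, at 1835 CPM in aKO and 3405 CPM in aWT, a log2 ratio of -0.89. Vcam1 was past 2-fold higher, at 825 CPM in aKO and 256 CPM in aWT, a log2 ratio of 1.67. The other classes held 4776 general capillary, 1027 aerocyte, 491 arterial and 1566 lymphatic cells in aKO. In aWT they held 8860 general capillary, 2156 aerocyte, 1132 arterial and 480 lymphatic cells. General capillary cells line the alveolar network and can divide, while aerocytes are the thin capillary cells specialised for gas exchange.

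Of the 8 genes, 7 were at least 2-fold higher in venous cells than in all other endothelial cells, in aKO and in aWT alike. Ackr1, at 10.9 CPM in aKO and 14.4 CPM in aWT venous cells, is among them but under the 50 CPM minimum. Of the 7 genes with at least 50 CPM in either set of cells, 6 were past that ratio in each library, and over all genes with this minimum the share was 3.79% in aKO and 4.91% in aWT. The 8 genes were chosen as venous genes with earlier results of these data known, so this excess is no independent test of the label. The 7 genes other than Cadm1 had their highest level in the venous class among the 5 named classes. The median log2 ratio of the 8 genes, venous over other endothelial cells after adding 5 CPM, was 2.44 in aKO and 3.32 in aWT, against -0.05 and -0.02 over all genes ranked. Cadm1 went against the label, with 44.0 CPM in aKO venous cells and 106 CPM in other aKO endothelial cells, and with 387 CPM in aWT venous cells and 484 CPM in other aWT endothelial cells. Its highest class was the general capillary one in both libraries.

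**Figure D1:**
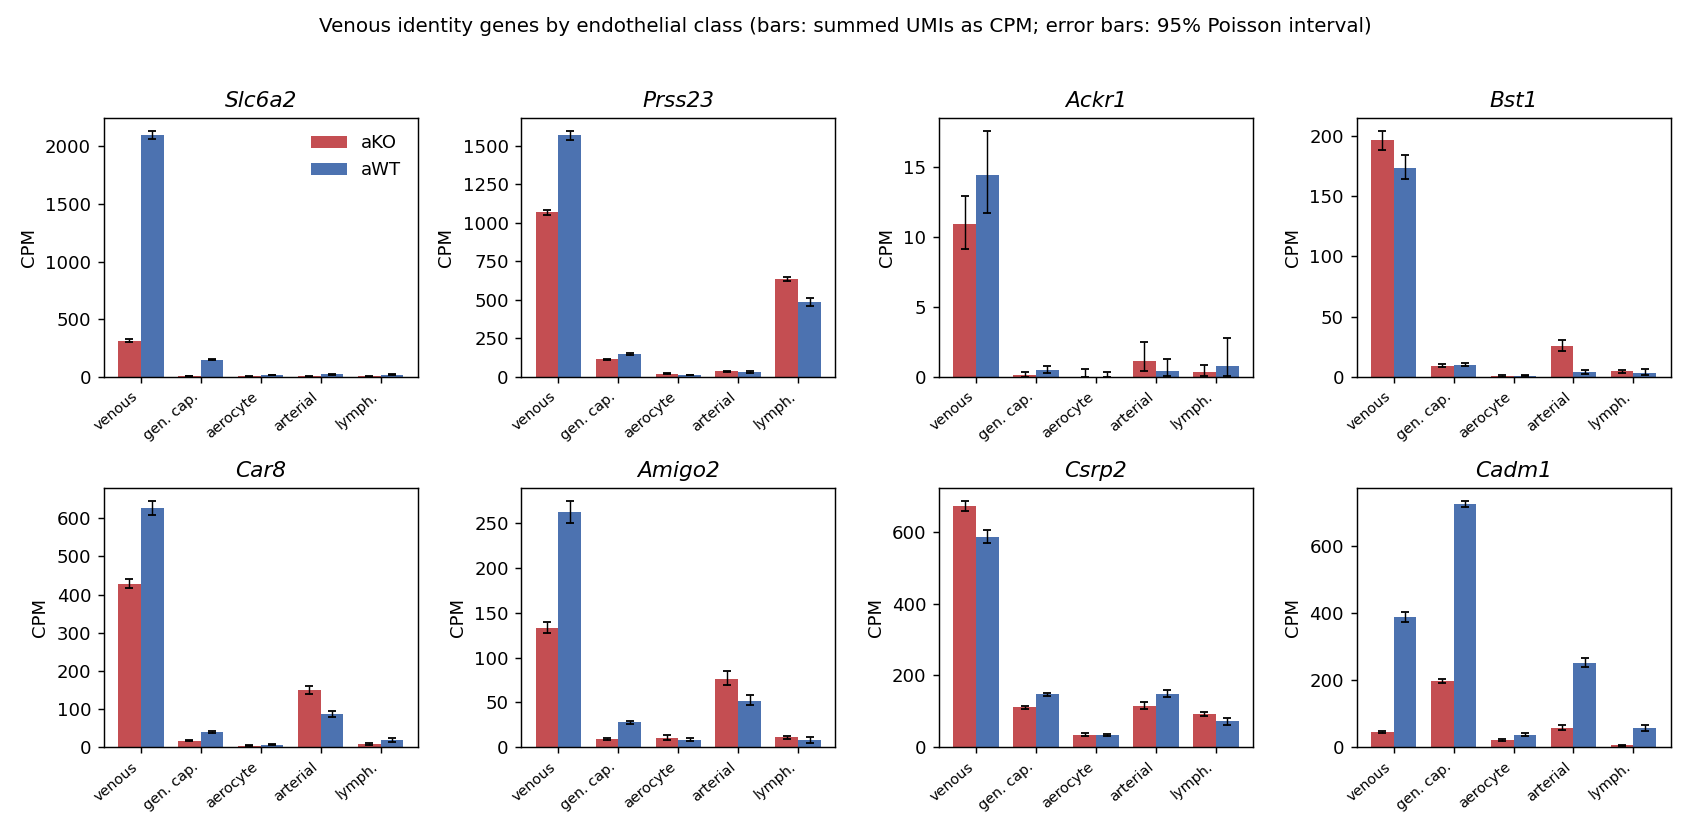
Level of each gene (CPM) in the venous, general capillary, aerocyte, arterial and lymphatic classes, with aKO beside aWT and exact 95% Poisson intervals, 1 library each. Slc6a2 stood at 315 CPM in aKO venous cells and 2101 CPM in aWT venous cells, and Cadm1 was the only gene of the set with its highest level in the general capillary class.

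**Figure D2:**
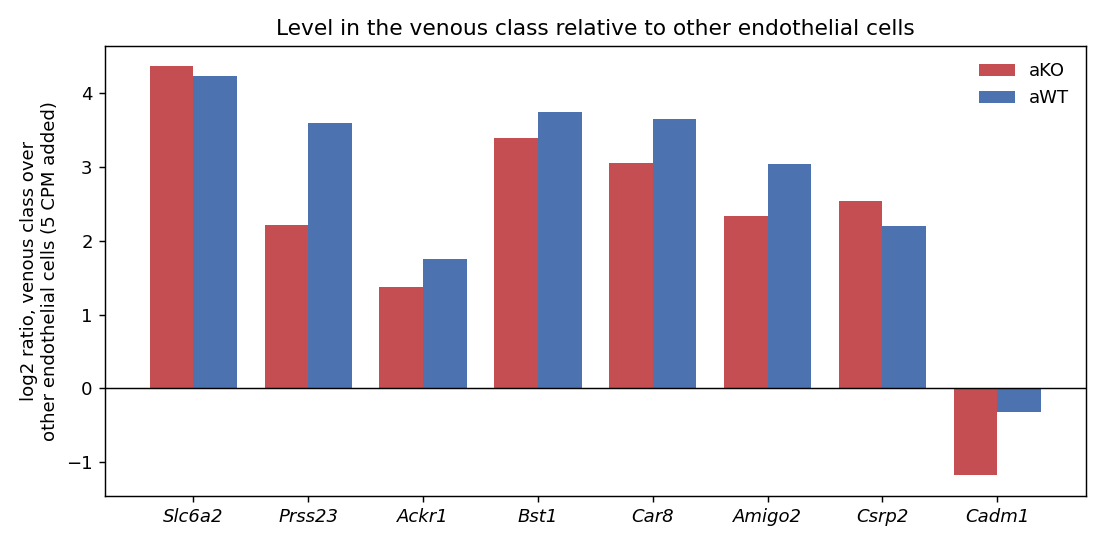
Log2 ratio of venous cells over all other endothelial cells of the same library, after adding 5 CPM, for each gene in aKO and aWT. The 7 genes other than Cadm1 lie between 1.37 and 4.36, and Cadm1 lies at -1.18 in aKO and -0.32 in aWT.

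Slc6a2 (mm10 chromosome 8, 92960079 to 93001667, plus strand) encodes the noradrenaline transporter. It had 3801 UMIs in the aKO venous class, 315 CPM (exact Poisson interval 305 to 325), and 14122 UMIs in the aWT venous class, 2101 CPM (2067 to 2136). The log2 ratio of aKO over aWT was -2.72. Slc6a2 nevertheless ranked first among all genes for venous over other endothelial cells in each library, among 4671 genes in aKO and 4356 in aWT, at log2 ratios of 4.36 and 4.23. General capillary cells came next, with 8.42 CPM in aKO and 148 CPM in aWT (4986 UMIs). In aWT, 374 general capillary or unassigned cells that were 1 UMI short of the venous rule held 2714 Slc6a2 UMIs. The general capillary level therefore takes in cells close to the venous class. Aerocyte, arterial and lymphatic cells held between 3.49 and 3.95 CPM in aKO, with intervals that overlap, and between 14.5 and 21.6 CPM in aWT, where each neighbour in the order overlaps the next. In aKO these levels rest on few cells. There, 1 cell of each class held 22 of the 42 lymphatic, 14 of the 25 aerocyte and 8 of the 19 arterial UMIs. The Poisson intervals do not cover such clumping. Venous cells held 86.3% of the endothelial Slc6a2 UMIs in aKO and 70.0% in aWT.

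The difference was also seen cell by cell at equal depth. After thinning to 2000 UMIs, 35.3% of 985 aKO venous cells and 85.1% of 978 aWT venous cells had an Slc6a2 UMI. Unthinned, the shares were 59.2% of aKO cells and 90.0% of aWT cells. Aerocytes, which should lack the transporter, gave 0.505% of 990 cells in aKO and 2.99% of 2076 cells in aWT after thinning, and their median depth before it was 5750 UMIs in aKO and 4749 UMIs in aWT. Among thinned venous cells, 3.86% had 5 or more Slc6a2 UMIs in aKO and 43.4% in aWT. In cells with any, the mean was 2.34 UMIs in aKO and 5.10 UMIs in aWT, so both the share of cells and the level in such cells were lower in aKO.

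**Figure D3:**
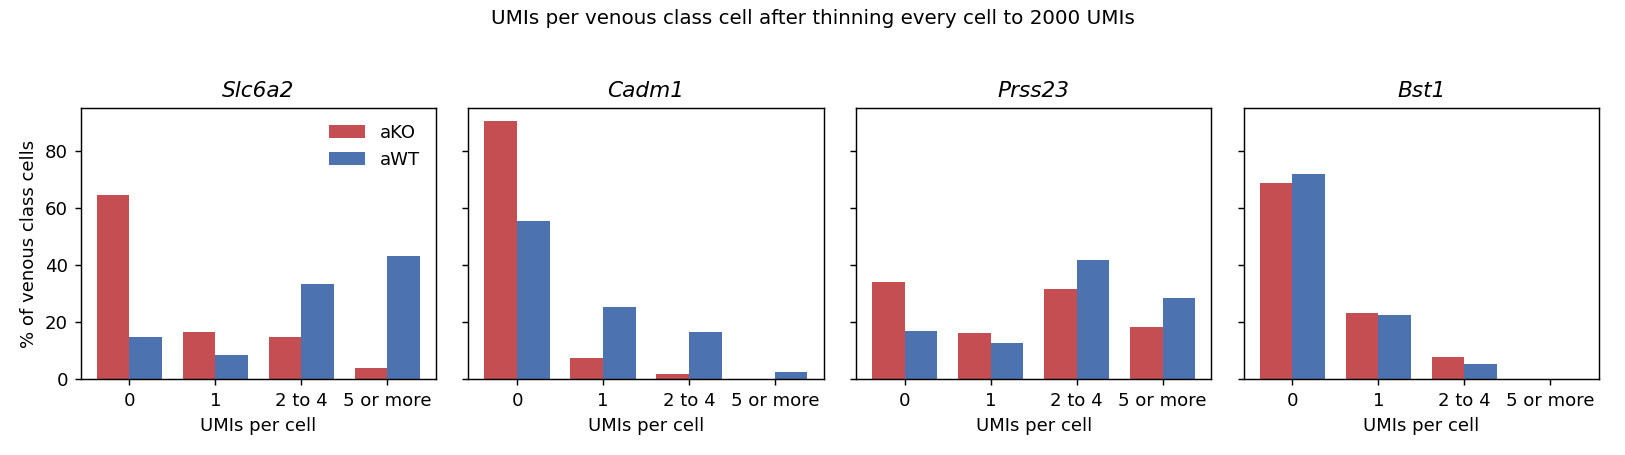
Share of venous cells (%) with 0, 1, 2 to 4 and 5 or more UMIs of Slc6a2, Cadm1, Prss23 and Bst1 after thinning each cell to 2000 UMIs (985 aKO and 978 aWT cells). Most aKO cells have 0 Slc6a2 UMIs (64.7%, against 14.9% in aWT), while the Bst1 bars of aKO and aWT are close in height.

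The venous class held more UMIs of some other marker lists in aKO than in aWT. The 3 proliferation markers summed to 257 CPM in aKO and 49.4 CPM in aWT. The 8 mesenchymal markers summed to 99.97 CPM in aKO and 16.2 CPM in aWT, chiefly Tagln (60.3 CPM in aKO and 10.3 CPM in aWT) and Acta2 (29.8 CPM in aKO and 2.08 CPM in aWT). None of the 8 was at 0, but Pdgfra, Pdgfrb and Cspg4 were each under 1 CPM in both libraries. Leukocyte markers summed to 1.16 CPM in aKO and 18.4 CPM in aWT, and epithelial markers to 2.07 CPM in aKO and 14.1 CPM in aWT. The 7 general capillary markers went the other way, with 1574 CPM in aKO and 3362 CPM in aWT. The same list was also lower in aKO in the general capillary class itself, at 3282 CPM in aKO and 7138 CPM in aWT. In venous cells Gpihbp1, Kit, Sema3c, Itga1 and Glp1r were past 2-fold lower. Plvap (962 CPM in aKO and 936 CPM in aWT) and Aplnr (36.1 CPM in aKO and 39.6 CPM in aWT) were not. Without cells holding a proliferation marker UMI, Slc6a2 stood at 369 CPM in aKO and 2140 CPM in aWT, a log2 ratio of -2.52. Without cells holding a mesenchymal marker UMI it stood at 371 CPM in aKO and 2132 CPM in aWT, a log2 ratio of -2.51. The part of the capillary markers in the result was not tested.

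Within the venous class, Slc6a2 was higher in cells with more Nr2f2 or Vwf and lower in cells with Selp. Cells with an Nr2f2 UMI had 346 CPM in aKO and 2128 CPM in aWT, while cells with none had 50.4 CPM in aKO and 1412 CPM in aWT. Cells whose Vwf share lay above the class median had 440 CPM in aKO and 2462 CPM in aWT. Those at or below it had 214 CPM in aKO and 1779 CPM in aWT. Cells with a Selp UMI had 183 CPM in aKO and 1697 CPM in aWT, and cells with none had 421 CPM in aKO and 2211 CPM in aWT. At the edge of the class, cells with exactly the minimum of Nr2f2 and Mustn1 UMIs held 176 CPM in aKO and 1920 CPM in aWT, and general capillary or unassigned endothelial cells 1 UMI short of it held 61.9 CPM in aKO and 1479 CPM in aWT. The aWT class therefore ends among cells that still hold much Slc6a2. General capillary and unassigned endothelial cells with 0 UMIs of all 5 rule genes held 1.54 CPM in aKO and 17.9 CPM in aWT.

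Ackr1 (chromosome 1, 173331886 to 173333750, minus strand) encodes the atypical chemokine receptor, also known as the Duffy antigen, that carries chemokines across venular endothelium. It was scarce, with 132 UMIs in 62 of the aKO venous cells and 97 UMIs in 36 of the aWT venous cells. These make 10.9 CPM in aKO (9.14 to 12.95) and 14.4 CPM in aWT (11.7 to 17.6), and the intervals overlap, so no difference was detectable at this depth. Of all endothelial Ackr1 UMIs, venous cells held 66.3% in aKO and 68.8% in aWT. Aerocytes had 0 UMIs in both libraries, which allows up to 0.474 CPM in aKO and 0.273 CPM in aWT at the level of 3 counts. Venous cells with a Selp UMI held 113 of the 132 UMIs in aKO and 73 of the 97 in aWT. Their level was 20.9 CPM over 371 aKO cells and 50.9 CPM over 178 aWT cells, against 2.85 CPM and 4.54 CPM in venous cells without a Selp UMI.

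Prss23 (chromosome 7, 89507783 to 89527187, minus strand) encodes a secreted serine protease. It stood at 1066 CPM (1048 to 1085) in aKO venous cells and 1567 CPM (1538 to 1598) in aWT venous cells, a log2 ratio of -0.55 that is within 2-fold. After thinning, 66.0% of aKO and 83.1% of aWT venous cells had a UMI. Lymphatic cells were second in the order, with 635 CPM in aKO and 483 CPM in aWT, higher in aKO. The venous excess over other endothelial cells was a log2 ratio of 2.22 in aKO and 3.60 in aWT. Outside the venous class, Prss23 averaged 225 CPM in aKO and 125 CPM in aWT, beside a lymphatic class that made up 15.4% of aKO and 3.33% of aWT endothelial cells.

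RefSeq promoter windows on GRCm38.p6, running from 250 bases before to 50 bases after a start site, were found for 3 of the 8 genes, namely Prss23, Ackr1 and Amigo2. The Ackr1 window (chr1:173333454-173333753, minus strand) and the second of the 7 Prss23 windows (chr7:89518155-89518454, minus strand) are shown because both hold the AGGTCA letters that COUP-TF receptors such as Nr2f2 are known to bind. Capitals mark the motifs found.
Ackr1: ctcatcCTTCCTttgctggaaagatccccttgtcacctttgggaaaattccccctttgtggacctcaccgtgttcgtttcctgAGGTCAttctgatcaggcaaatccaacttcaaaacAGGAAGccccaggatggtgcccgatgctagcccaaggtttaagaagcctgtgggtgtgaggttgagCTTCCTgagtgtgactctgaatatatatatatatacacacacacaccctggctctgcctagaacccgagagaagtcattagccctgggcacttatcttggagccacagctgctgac
Prss23: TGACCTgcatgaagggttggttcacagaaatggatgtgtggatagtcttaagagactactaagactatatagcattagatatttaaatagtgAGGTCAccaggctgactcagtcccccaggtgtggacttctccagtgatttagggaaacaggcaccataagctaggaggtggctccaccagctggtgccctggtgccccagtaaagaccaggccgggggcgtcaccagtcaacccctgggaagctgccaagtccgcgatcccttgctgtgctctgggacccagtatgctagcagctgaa
Letters were searched on both strands for AGGTCA, for the ETS core AGGAAG, for the BMP-responsive SMAD letters GGCGCC and for the TATA letters TATAAA. Counted from the start site, the Ackr1 window held AGGTCA at -167 and the ETS core at -244, -132 and -66, with no overlap between them. The Prss23 window held the AGGTCA letters at -250 on the other strand and at -158. Of the 7 Prss23 windows, only this one and the next, which overlaps it, held AGGTCA. Among 32851 windows of the same length, 16.3% held AGGTCA, 35.4% the ETS core, 11.9% GGCGCC and 13.6% TATAAA. These shares are per window, so a gene with 7 windows has more places for a match. The Amigo2 window, which is not shown, held GGCGCC at -57, and the last Prss23 window held it at -80. TATAAA was in no window of these 3 genes. A match describes letters and not binding.

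Bst1 (chromosome 5, 43818885 to 43843986, plus strand) encodes CD157, a surface enzyme that breaks down NAD. It had 196 CPM (189 to 204) in aKO venous cells and 174 CPM (164 to 184) in aWT venous cells, a log2 ratio of 0.17. The share of thinned venous cells with a UMI was 31.2% in aKO (28.3 to 34.2) and 28.1% in aWT (25.3 to 31.1). Arterial cells held 25.9 CPM in aKO and 4.02 CPM in aWT, under the 50 CPM minimum in both. Bst1 thus stood slightly higher in aKO in the class where Slc6a2 was lower.

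Car8 (chromosome 4, 8143362 to 8239041, minus strand) encodes a carbonic anhydrase-related protein without enzyme activity that binds the inositol trisphosphate receptor Itpr1. It stood at 429 CPM (417 to 441) in aKO venous cells and 627 CPM (608 to 646) in aWT venous cells, a log2 ratio of -0.54. Arterial cells were second, with 150 CPM (139 to 161) in aKO and 86.2 CPM (79.3 to 93.5) in aWT, a log2 ratio of 0.76. Car8 was therefore lower in aKO in venous cells and higher in aKO in arterial cells, both within 2-fold. General capillary cells held 16.6 CPM in aKO and 39.9 CPM in aWT.

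Amigo2 (chromosome 15, 97244125 to 97247287, minus strand) encodes a leucine-rich repeat adhesion protein of the cell surface. It stood at 133 CPM (127 to 140.2) in aKO venous cells and 263 CPM (251 to 275) in aWT venous cells, a log2 ratio of -0.95 that lies just inside the 2-fold limit and passed it, at -1.05, when cells were thinned to 2000 UMIs. The share of thinned venous cells with a UMI was 22.0% in aKO and 39.9% in aWT. In arterial cells it stood at 76.6 CPM (69.2 to 84.4) in aKO and 51.8 CPM (46.5 to 57.6) in aWT, a log2 ratio of 0.52, so that the direction differed between the classes as it did for Car8.

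Csrp2 (chromosome 10, 110919789 to 110939622, plus strand) encodes a LIM-domain protein known from smooth muscle. It stood at 672 CPM (658 to 687) in aKO venous cells and 587 CPM (568.5 to 605) in aWT venous cells, a log2 ratio of 0.19. The thinned share was 63.5% of aKO and 65.3% of aWT venous cells. In general capillary cells it stood at 111 CPM in aKO and 147 CPM in aWT, a log2 ratio of -0.40.

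Cadm1 (chromosome 9, 47530173 to 47857637, plus strand) encodes an immunoglobulin-family adhesion molecule. It had 532 UMIs in the aKO venous class, 44.0 CPM (40.4 to 47.9), and 2602 UMIs in the aWT venous class, 387 CPM (372 to 402), a log2 ratio of -3.00. In each of the 5 classes its level was lower in aKO than in aWT. General capillary cells held 196 CPM in aKO and 727 CPM in aWT, arterial cells 57.5 CPM in aKO and 252 CPM in aWT, and lymphatic cells 4.57 CPM in aKO and 55.5 CPM in aWT. Aerocytes had 21.2 CPM of it in aKO and 37.0 CPM in aWT, under the minimum in both. Thinned venous cells with a Cadm1 UMI made up 9.34% in aKO (7.60 to 11.3) and 44.6% in aWT (41.4 to 47.8). Without venous cells holding a mesenchymal or a proliferation marker UMI, the log2 ratio of Cadm1 was -2.82 and -3.02.

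**Figure D4:**
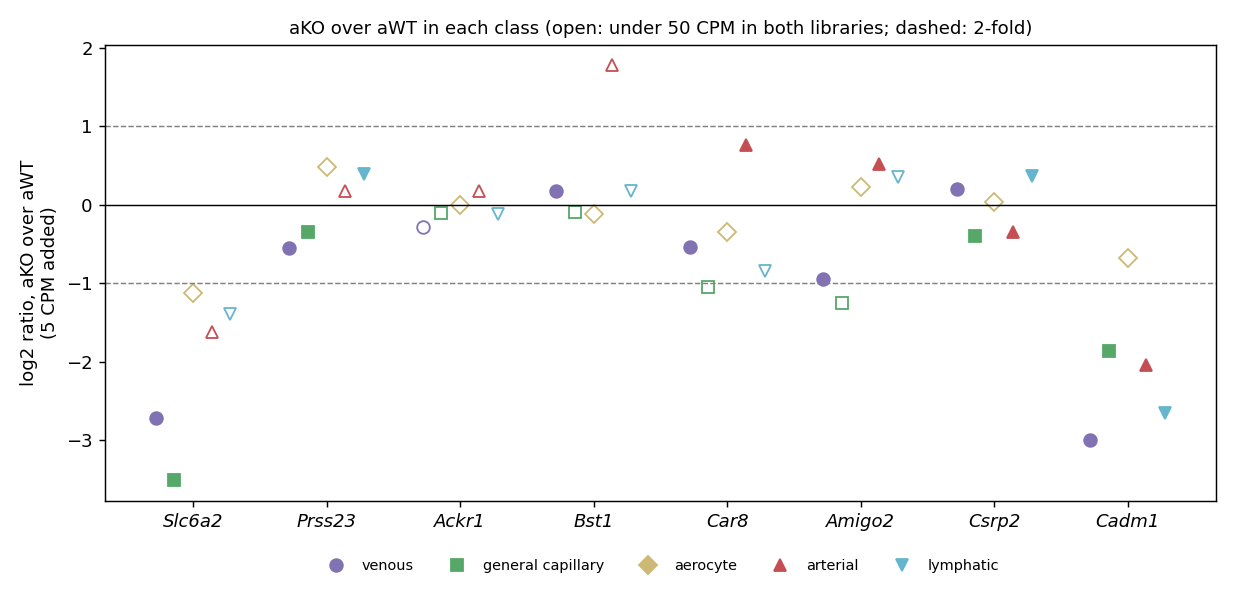
Log2 ratio of aKO over aWT for each gene in each class after adding 5 CPM. Slc6a2 and Cadm1 lie at or below -2.72 in the venous class, while Car8 and Amigo2 lie below 0 in venous cells and above 0 in arterial cells.

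Taken as a set, 7 of the 8 genes had at least 50 CPM in venous cells of at least 1 library. Slc6a2 and Cadm1 were at least 2-fold lower in aKO, 0 were 2-fold higher and 5 lay within 2-fold. Over all 4527 genes past the same minimum, 4.31% were 2-fold lower and 4.75% were 2-fold higher in aKO. The median log2 ratio of the 8 genes was -0.55, and that of all genes was 0.03. In general capillary cells 4 of the 8 passed the minimum, of which Slc6a2 (log2 ratio -3.51) and Cadm1 (-1.86) were 2-fold lower and 0 were higher, against 3.29% lower and 4.03% higher over all genes there. With classes set on thinned UMIs the Slc6a2 ratio in general capillary cells was -2.03. The general capillary ratio of Slc6a2 takes in cells just short of the venous rule, so it is not a measure of capillary cells alone. In arterial cells 4 passed the minimum and Cadm1 (-2.04) alone was 2-fold lower, where 5.63% of all genes were lower and 5.04% higher. In lymphatic cells 3 passed and Cadm1 (-2.66) alone was 2-fold lower, where 1.76% of all genes were lower and 1.18% higher. The aWT lymphatic level of Cadm1, 55.5 CPM, was just past the minimum, and free RNA was not removed. In aerocytes 0 members reached 50 CPM, where 1.79% of all genes were lower and 1.74% higher.

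Over all endothelial cells together, Slc6a2 stood at 63.6 CPM in aKO and 320.2 CPM in aWT, a log2 ratio of -2.25, and Cadm1 at 95.1 CPM in aKO and 474 CPM in aWT, a log2 ratio of -2.26. These were the 2 genes of the set past 2-fold, where 3.29% of all genes were 2-fold lower and 4.61% were 2-fold higher. The median of the 8 genes was 0.10 in this pool, in contrast to -0.55 in the venous class. Bst1, at 45.9 CPM in aKO and 26.0 CPM in aWT, and Prss23, at 372 CPM in aKO and 279 CPM in aWT, were higher in the aKO pool. With the 5 classes weighted equally, the median of the 8 genes was -0.30. Such a pool mixes the share of venous cells, which was 9.78% in aKO and 6.87% in aWT, with the level in venous cells.

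Detection of several of the genes in the same cell was counted. At 2000 UMIs per cell, at least 3 of the 8 genes were detected in 59.0% of 985 aKO venous cells and 86.5% of 978 aWT venous cells, with means of 2.77 genes in aKO and 4.09 genes in aWT. In general capillary cells the same was true of 2.21% of 4207 aKO cells and 8.08% of 7563 aWT cells. Leaving out Slc6a2 and Cadm1, at least 3 of the other 6 genes were detected in 47.2% of aKO and 62.1% of aWT venous cells. Such shares also follow from how often each gene is detected alone, so they do not show pairing by themselves. Over venous cells, the strongest pairing of detection was that of Slc6a2 with Prss23, at a phi coefficient of 0.33 in aKO and 0.45 in aWT. Both were detected in 303 aKO and 751 aWT cells, where the product of their shares gives 230 and 692 cells. Among the 28 pairs the median phi was 0.05 in each library, and phi was above 0 for 21 pairs in aKO and 18 pairs in aWT. For Cadm1 the phi lay below 0 with 4 of the other 7 genes in aKO and with 6 of 7 in aWT. These coefficients describe cells of 1 library each and are weak in counts this sparse.

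By pattern, 10 genes tracked the set most closely over the 10 class levels (5 classes in 2 libraries), as Pearson r between log2 CPM after adding 5 and the mean of the 8 genes, among 5757 genes. Slc35d1, a nucleotide sugar transporter, had r = 0.98, and Insr, the insulin receptor, had r = 0.97. Lpcat2, Kirrel3, Cygb, Gria3, Prcp, Mrrf, Gm48749 and 1700020G17Rik followed at 0.93 to 0.96. Classes of 1 library share its depth and its free RNA. Insr stood at 191 CPM in aKO venous cells and 378 CPM in aWT venous cells, a log2 ratio of -0.96. Kirrel3, an immunoglobulin-family adhesion gene, stood at 350.3 CPM in aKO venous cells and 467 CPM in aWT venous cells, a log2 ratio of -0.41. Over the 10 genes this ratio ran from -1.52 for 1700020G17Rik to -0.09 for Slc35d1. Prcp (-0.21), Gria3 (-0.15) and Mrrf (-0.14) also differed little. Levels of both libraries enter r, so these ratios are not independent of the match. Among the members, r with the mean of the other 7 was highest for Csrp2 (0.95) and lowest for Cadm1 (0.40).

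Genes related to the members by function were read in the same venous cells, where over all genes 4.31% were 2-fold lower and 4.75% were 2-fold higher in aKO. Among genes of monoamine signalling and breakdown, the beta-adrenergic receptor gene Adrb1 was 2-fold lower (42.0 CPM in aKO and 121 CPM in aWT, log2 ratio -1.42). Maoa, a monoamine-degrading enzyme, was within 2-fold, at a log2 ratio of 0.12. Of 6 NAD and adenosine ectoenzymes 3 passed the minimum, and Cd38, an NAD-cleaving enzyme related to Bst1, was 2-fold lower (38.5 CPM in aKO and 83.2 CPM in aWT, log2 ratio -1.02). Of 10 carbonic anhydrases and inositol trisphosphate receptors 4 passed, and Car14 was 2-fold lower (8.86 CPM in aKO and 66.1 CPM in aWT, log2 ratio -2.36). Itpr1, the receptor that Car8 binds, stood at 380 CPM in aKO and 218 CPM in aWT, a log2 ratio of 0.79. In general capillary cells its log2 ratio was 0.89.

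Among serine proteases related to Prss23, Htra1 (88.0 CPM in aKO and 12.3 CPM in aWT, log2 ratio 2.42) and Plat, tissue plasminogen activator (87.1 CPM in aKO and 26.6 CPM in aWT, log2 ratio 1.54), were 2-fold higher in aKO. Of 6 cysteine-rich LIM genes 4 passed, and Csrp1 (387 CPM in aKO and 173 CPM in aWT, log2 ratio 1.14) and Crip1 (899 CPM in aKO and 399 CPM in aWT, log2 ratio 1.16) were 2-fold higher. These differences were not venous alone. In general capillary cells the log2 ratio was 1.36 for Csrp1, 1.37 for Crip1 and 1.07 for Plat. Over all genes in venous cells, 4.75% were 2-fold higher and 4.31% were 2-fold lower in aKO. Of 9 chemokine receptors and venular chemokines 2 passed, and 0 of these 2 were past 2-fold. Under the minimum, Ccl2 (36.8 CPM in aKO and 0.298 CPM in aWT, log2 ratio 2.98) was higher in aKO. So was Ccl7, at 7.45 CPM in aKO and 0 CPM in aWT (log2 ratio 1.32). Ackr2, also under it, was lower, at 6.21 CPM in aKO and 30.4 CPM in aWT (log2 ratio -1.66). The scavenging receptor Ackr3 stood at 1586 CPM in aKO and 953 CPM in aWT, a log2 ratio of 0.73. Of 9 AMIGO, nectin and Cadm adhesion genes only Nectin3 passed, at a log2 ratio of -0.41.

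Of 12 genes listed as venous regulators or markers 11 passed the minimum and 0 were 2-fold lower. Emcn, an endothelial sialomucin, was 2-fold higher, at 1154 CPM in aKO and 520.0 CPM in aWT. The shares over all genes in venous cells were 4.31% lower and 4.75% higher. Sox18, Sox7, Sox17, Gata2 and Tek of this list were lower in venous than in other endothelial cells of both libraries. For Sox17 that log2 ratio was -0.50 in aKO and -0.92 in aWT. The count is therefore not one of venous genes alone. Nr2f2 itself stood at 509 CPM in aKO and 555 CPM in aWT, a log2 ratio of -0.12, though it was part of the rule for the class. The venous kinase receptor Ephb4, not part of that rule, had a log2 ratio of -0.30, and the angiopoietin receptor Tek one of -0.71.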

How the data were processed

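Single-cell RNA was measured in 2 libraries, 1 per group, grouped by the sample titles. The authors deposited raw UMI counts for every feature and barcode. The submitters' processing notes name Cell Ranger 7.2.0 and the build mm10. Which annotation release was used, and how intronic reads were treated, is not stated by the labels or file headers read here. Gene spans came from GENCODE M21 on that build.

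A cell needed 500 detected genes or more and a mitochondrial share of no more than 15%. Scrublet, run through scanpy 1.11.5, removed barcodes with a score above 0.2 in both libraries: 399 in aKO (3.70%) and 718 in aWT (4.59%). That score was set after the scores had been seen, because the automatic threshold called 0 aWT barcodes. Endothelial cells had UMIs of at least 3 of 8 endothelial genes and more UMIs of them than of any other list. Lymphatic cells needed 3 UMIs from 2 of Prox1, Mmrn1, Reln and Pdpn, arterial cells 3 UMIs from 2 of Gja5, Gja4, Bmx and Dkk2, and aerocytes 3 UMIs from 2 of Ednrb, Fibin, Tbx2, Chst1 and Rprml with a Car4 UMI. Venous cells followed the rule in the report. Cells meeting only the venous and the lymphatic rule were called lymphatic. Other cells meeting more than 1 rule were mixed (304 aKO, 92 aWT). The rest were general capillary with 3 UMIs from 2 of Gpihbp1, Kit, Aplnr, Plvap, Sema3c, Itga1 and Glp1r, or else other endothelial (996 aKO, 724 aWT). These minimums were set after marker UMIs had been seen and without the 8 genes. Free RNA was not removed.

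UMIs were summed per class and library and divided by the class total (CPM). Ratios are log2 after adding 5 CPM, which understates the change of low genes, and 2-fold counts need 50 CPM in 1 library. Intervals are exact Poisson for CPM and exact Clopper-Pearson for shares, and cover counting error only. Thinning to 2000 UMIs left out 1438 aKO and 2318 aWT cells. The size rule and the thinning were tested on simulated data. The members, the gene lists and the classes were chosen with earlier results of these data known. Named genes were the 8 members, the related lists, the class markers and the 10 genes most like the members in pattern; Acvrl1 and Xist were named as library checks. Some genes of the monoamine and serine protease lists are not reported here, so these lists are given without counts. Alternatives were TMM factors from edgeR 4.0.16, another pseudocount and minimum, cell and doublet filters, other class rules, and subsets of venous cells added after the data had been seen. Python 3.11.15, numpy 2.4.6 and scipy 1.17.1 were used.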

Additional observations from a re-analysis of the deposited data

Results flagged for a closer look

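Car8 and Amigo2 differed between aKO and aWT in opposite directions in venous and arterial cells. For Car8 the log2 ratio of aKO over aWT was -0.54 in venous cells and 0.76 in arterial cells, 1.30 apart. For Amigo2 it was -0.95 in venous cells and 0.52 in arterial cells, 1.47 apart. With 1 library per group the difference between the classes was not tested. The arterial classes also differed in depth, with a median of 10217 UMIs in aKO and 5198 UMIs in aWT. The 7 general capillary markers summed to 635 CPM in aKO and 2843 CPM in aWT arterial cells. Whether either bears on the arterial ratios was not tested, and these ratios were not rerun under the alternative settings.

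Some members were also counted in sorted cells outside the endothelial classes. In 164 aWT cells that held mostly epithelial markers (median 14090 UMIs), Car8 stood at 508 CPM (479 to 537), Csrp2 at 228 CPM (210 to 249) and Cadm1 at 380 CPM (356 to 406). The aKO library had 24 such cells, with Car8 at 439 CPM (372 to 515), Csrp2 at 212 CPM (166 to 267) and Cadm1 at 357 CPM (297 to 426). Slc6a2 stood at 0 CPM in those 24 aKO cells and at 23.7 CPM in the 164 aWT cells, and Ackr1 had 0 UMIs in both.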

How the results depend on the processing

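Over the alternatives run, the venous log2 ratio of aKO over aWT lay between -3.02 and -2.38 for Slc6a2, -3.11 and -2.76 for Cadm1, -1.05 and -0.56 for Amigo2, -0.71 and -0.42 for Car8, -0.57 and -0.41 for Prss23, and 0.05 and 0.35 for Csrp2. It lay between -0.01 and 0.29 for Bst1 and between -1.18 and 0.04 for Ackr1, so both changed sign. Of 384 values of single genes, 237 moved by less than counting error and 147 by more; the cause was not tested.

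The venous median of the 8 genes (-0.55) was -0.50 as a mean over cells, -0.45 with classes set on thinned UMIs, -0.51 without proliferating cells, -0.48 without mesenchymal-marker cells and -0.46 in Nr2f2 cells alone. With a marker left out of the class rule it was -0.78 without Nr2f2, -0.45 without Mustn1, -0.77 without Vwf and -0.48 without Vcam1. The median over all endothelial cells (0.10) was -0.14 as a mean over cells, -0.090 thinned and -0.30 with classes weighted equally, so its sign depended on the setting. The general capillary median (-0.73) was -0.82 with 1 CPM added and -0.072 with classes set on thinned UMIs.

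The median venous excess (2.44 in aKO, 3.32 in aWT) was 2.55 in aKO and 3.43 in aWT with 1 CPM added, 2.77 in aKO and 3.46 in aWT as a mean over cells, and 2.35 in aKO and 3.18 in aWT with doublets kept. It was 2.74 in aKO and 3.53 in aWT thinned, 2.18 in aKO and 2.72 in aWT with classes set on thinned UMIs, and 3.09 in aWT with stricter classes. The venous share was 10.6% in aKO and 7.57% in aWT with at least 1000 genes per cell, 3.89% in aKO and 3.29% in aWT with classes set on thinned UMIs, and 8.31% in aKO and 4.95% in aWT with stricter classes. With a minimum of 20 CPM, 357 genes in place of 215 were 2-fold higher in aKO venous cells. No paired analysis was possible because each group has 1 library. Depth limits Ackr1 above all.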
